A study of Mus musculus with 9 samples.

Results

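Condensin and cohesin are the ring-shaped complexes that fold chromosomes and hold them together. Here 10 of their subunit genes were followed in mouse embryonic fibroblasts that overexpressed p21 or p16 and in controls. Cell cycle arrest was not measured in the data used here. The 10 genes were taken by symbol from a table of 24062 genes: Smc2 and Smc4, Ncapd2, Ncapg and Ncaph, Ncapd3, Ncapg2 and Ncaph2, and Smc1a and Smc3. RNA of C57BL/6 fibroblasts was sequenced 10 days after infection with a control lentivirus (EV in the titles) or a lentivirus for overexpression of p21 or of p16, with 3 libraries in each group. All 9 cultures carried a lentivirus, so every difference given here is relative to infected cells, not to untouched cells. Controls carry the same status label, senescent, as the treated cells. Whether replicates are separate embryos, cultures or preparations is not in the labels, and p-values therefore cover only the spread from library to library. Whether the p16 libraries were prepared apart is not given in the sources used here. Their record numbers are not contiguous with the others, and a batch of that kind could not be told apart from p16.

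Each of these complexes is built on a heterodimer of SMC proteins (structural maintenance of chromosomes), long coiled coils whose ATPase heads are bridged by the kleisin subunit into a ring that encloses DNA. Condensin I and condensin II share the SMC2 and SMC4 proteins and differ in their other subunits: the kleisin is NCAPH in condensin I and NCAPH2 in condensin II, and the HEAT-repeat subunits are NCAPD2 and NCAPG in the former and NCAPD3 and NCAPG2 in the latter. Condensin II is nuclear throughout the cell cycle and starts chromosome folding in prophase, whereas condensin I reaches chromosomes after the nuclear envelope breaks down. Cohesin rests on SMC1A and SMC3, holds sister chromatids together from S phase to anaphase, and also extrudes chromatin loops in cells that do not divide. p21, encoded by Cdkn1a, and p16, encoded by Cdkn2a, are cyclin-dependent kinase inhibitors, and both keep RB-family proteins active against E2F target genes.

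Total counts per library lay between 56.9 M (p21 replicate 3) and 76.1 M (control replicate 1), where M is 1e6, and 14572 genes, all 10 subunits among them, had enough reads to be tested. The levels below are CPM (counts per M counts of the library) after TMM scaling, which evens out differences in library composition. Cdkn1a stood at 317 to 399 CPM in control, 1085 to 1218 in p21 and 394 to 435 in p16 libraries. Cdkn2a stood at 59.6 to 68.8 CPM in control, 79.6 to 113 in p21 and 944 to 1069 in p16 libraries. Xist, a transcript of the inactive X chromosome, was at 158 to 397 CPM in replicate 3 of each group and at most 1.34 CPM in the other libraries. Ddx3y, a Y chromosome gene, stood at 1.10, 10.8 and 1.26 CPM in replicate 3 of control, p21 and p16. The other libraries held 50.1 to 68.5 CPM of it. In every group, replicate 3 thus differed from replicates 1 and 2 in these sex-linked transcripts. Of the fibroblast markers, collagen genes such as Col1a1 were abundant in every library, but Dcn and Lum, also used as fibroblast markers, stood at or below 5.22 CPM. The 10 macrophage markers summed to 11.7 to 13.1 CPM in control, 22.2 to 38.6 in p21 and 10.1 to 13.3 in p16 libraries, and 5 of the 9 tested rose in p21 cells, where 19.3% of all tested genes passed in the higher direction (3.57% in p16 cells). Of 10 fibroblast markers, Pdgfra fell 2.37-fold in p21 cells (adjusted p = 0.00448) and Thy1 and S100a4 rose. Endothelial markers summed to at most 7.97 CPM in any library, and of the 6 tested Emcn rose 2.36-fold in p21 and 2.82-fold in p16 cells. Epithelial markers summed to 46.2 to 88.4 CPM, mostly Krt19, and of the 4 tested Cldn4 rose 3.13-fold in p21 cells from under 0.3 CPM in control libraries. These marker genes were named after their values were seen. Of 8 skeletal muscle markers only Des, a muscle intermediate filament gene, was above 1 CPM. It was higher in p21 and p16 than in control libraries, and Myf5 was at 0 in all 9. The part of these other transcripts in the subunit results was not tested. In bulk RNA, fewer dividing cells and less RNA per cell cannot be told apart.

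The subunit genes lie on 10 different chromosomes in GENCODE M21 (build GRCm38, also called mm10). For the shared SMC proteins, Smc4 lies at chr3:69004738-69034623 on the plus strand and Smc2 at chr4:52439243-52488260 on the plus strand. Smc4 carries the microRNA genes Mir15b and Mir16-2 in its introns. Of the condensin I genes, Ncapd2 lies at chr6:125168007-125191701 on the minus strand, Ncapg at chr5:45669919-45700546 on the plus strand and Ncaph at chr2:127103809-127133954 on the minus strand. Of the condensin II genes, Ncapd3 lies at chr9:27030175-27095315, Ncapg2 at chr12:116405402-116463731 and Ncaph2 at chr15:89355719-89372826, all on the plus strand. The cohesin gene Smc1a lies on the X chromosome at chrX:152016428-152062694 and Smc3 at chr19:53600398-53645833, both on the plus strand. The library kit does not mark strand, so reads from overlapping exons could be counted for either gene. Ncaph2 shares 829 exonic bases (19.7% of its exons) with Sco2 and 535 (12.7%) with Tymp, and Tymp stood at 0.866 ± 0.148 CPM (SD, n = 3) in control libraries. Sco2 is listed at 0 in all 9 libraries. How overlapping reads were handled is not stated, so that 0 does not show how many reads of the shared exons were counted for Ncaph2. Ncapg shares 944 exonic bases (13.4%) with Lcorl, which stood at 4.66 ± 0.244 CPM in control and 3.78 ± 0.280 CPM in p21 libraries (SD, n = 3 each). Ncapd2 shares 237 bases (3.78%) with the small RNA gene Scarna10.

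Promoter sequence was examined because these genes moved together, and 9 of the 10 had entries among RefSeq's start sites on GRCm38.p6, Ncapd3 with a pair of starts. Smc4 had no entry. Each window ran from 250 bases before to 50 bases after the annotated start, and 4 motifs were searched on both strands. The E2F site was taken as TTTCCCGC or TTTGGCGC or TTTCGCGC or TTTGCCGC, the CHR element (the cell cycle genes homology region bound by the MuvB complex) as TTTGAA or TTCGAA, the CCAAT box as CCAAT and the GC box as GGGCGG. The letters TTCGAA read the same on both strands, and no match overlapped another. The stretches below run from 200 bases before to 30 bases after the start on the strand of the gene, with E2F, CHR and CCAAT matches in capitals. They show the 3 genes that fell most in p21 cells (Ncapg, Ncapg2 and Ncapd2) and the 2 that fell least (Ncaph2 and Smc3). They lie at chr5:45669725-45669954 (Ncapg, plus), chr12:116405236-116405465 (Ncapg2, plus), chr6:125191557-125191786 (Ncapd2, minus), chr15:89355519-89355748 (Ncaph2, plus) and chr19:53600196-53600425 (Smc3, plus).
Ncapg: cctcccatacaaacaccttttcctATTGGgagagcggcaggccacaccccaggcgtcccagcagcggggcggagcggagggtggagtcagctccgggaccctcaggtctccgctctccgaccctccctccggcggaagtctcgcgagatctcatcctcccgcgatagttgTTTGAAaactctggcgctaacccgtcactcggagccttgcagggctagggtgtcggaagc
Ncapg2: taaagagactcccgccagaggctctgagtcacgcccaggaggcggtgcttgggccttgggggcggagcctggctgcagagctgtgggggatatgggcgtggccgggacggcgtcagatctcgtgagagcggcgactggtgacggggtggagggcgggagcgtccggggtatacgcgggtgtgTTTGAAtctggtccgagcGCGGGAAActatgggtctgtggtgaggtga
Ncapd2: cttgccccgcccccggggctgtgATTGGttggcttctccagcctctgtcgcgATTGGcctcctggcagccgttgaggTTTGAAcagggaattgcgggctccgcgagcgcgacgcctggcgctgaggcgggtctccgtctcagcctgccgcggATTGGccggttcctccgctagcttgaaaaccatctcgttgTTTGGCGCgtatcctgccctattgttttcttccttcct
Ncaph2: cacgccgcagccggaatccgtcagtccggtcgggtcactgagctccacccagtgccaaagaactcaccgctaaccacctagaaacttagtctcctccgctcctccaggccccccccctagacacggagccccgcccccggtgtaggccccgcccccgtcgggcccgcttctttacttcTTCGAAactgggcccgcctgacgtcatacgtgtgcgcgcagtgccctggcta
Smc3: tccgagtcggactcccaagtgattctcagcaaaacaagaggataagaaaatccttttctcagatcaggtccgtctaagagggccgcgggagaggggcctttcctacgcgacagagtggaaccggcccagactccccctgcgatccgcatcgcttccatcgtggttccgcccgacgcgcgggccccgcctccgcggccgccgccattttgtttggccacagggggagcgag

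An E2F match lay in the windows of 4 of the 9 genes (Ncapd2, Ncapg, Ncapg2 and Smc1a), against 2.26% of 32851 windows of the same length. CHR matches lay in 6 genes (Smc2, Ncapd2, Ncapg, Ncapd3, Ncapg2 and Ncaph2), against 19.2% of windows. Both motifs were present in Ncapd2, Ncapg and Ncapg2, against 0.317% of windows. The background windows were not matched to those of the subunit genes for GC content or expression. The E2F match of Ncapg lies 32 bases after the start, beyond the stretch printed above, and Ncapg2 has a second E2F match 249 bases before its start. CCAAT boxes lay in 4 genes, with 3 in Ncapd2, against 37.4% of windows. GC boxes lay in 8 genes, against 35.7%. For Ncapd3, the CHR match lay only at start 2 of its pair, and start 1 held only a GC box. The window of Ncaph, which also fell in p21 cells, held none of these letters. A match is a description of the letters and not a binding site, and genes were chosen with their responses known. Any part of these motifs in the falls was not tested.

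**Figure D1:**
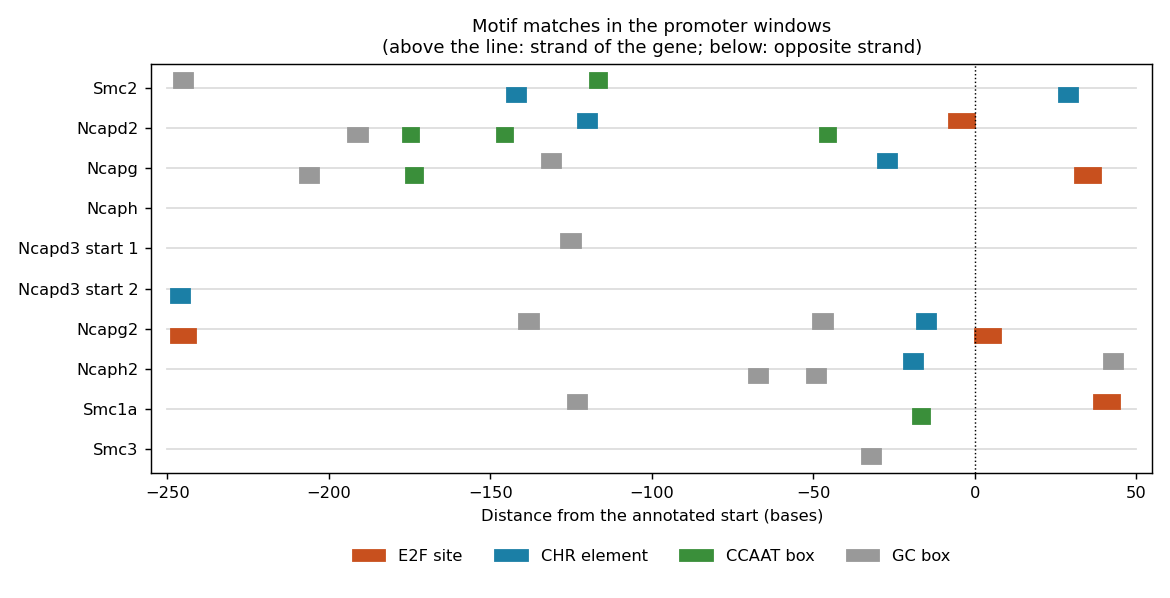
Positions of the 4 motifs in the promoter windows of 9 subunit genes (horizontal axis, bases from the annotated start; boxes above a line lie on the strand of the gene and boxes below it on the opposite strand). Ncapd2, Ncapg and Ncapg2 hold both an E2F match and a CHR match, Smc3 holds a GC box and Ncaph holds none.

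Levels of the subunits were compared with each other per kilobase of exon (CPM per kb). In control cells, Smc4 and Ncaph2 were highest at 26.3 ± 0.870 and 26.3 ± 0.138 CPM per kb (SD, n = 3 each), followed by Smc1a at 24.4 ± 2.22, Ncapd2 at 23.2 ± 1.30, Smc2 at 20.2 ± 2.16 and Smc3 at 16.8 ± 0.333. Smc4, Ncaph2 and Smc1a overlapped between libraries, as did Smc1a with Ncapd2 and Ncapd2 with Smc2. The other 4 subunits were lower: Ncaph at 8.71 ± 0.886, Ncapg at 5.19 ± 0.168, Ncapg2 at 5.05 ± 0.381 and Ncapd3 at 3.97 ± 0.370 CPM per kb. Ncapg and Ncapg2 overlapped, while Ncaph and Ncapd3 did not overlap their neighbours. By coding length, the same 6 genes stayed above the same 4, with Ncaph2 highest at 60.6 and Ncapd3 lowest at 6.94 CPM per coding kb. On that scale Ncaph2 and Smc1a (38.0) had the highest means in control cells, ahead of Smc4 (35.5). They also had the highest in p21 cells, at 43.5 and 25.8. Below them in p21 cells, Smc3 at 17.6 stood above Smc4 at 17.1, whereas in control cells Smc3 (25.5) was below Smc4. Per exonic kb, the genes at the top changed in p21 cells, whereas per coding kb Ncaph2 and Smc1a kept the highest means. Ncaph2 stood at 18.9 ± 0.895 CPM per kb and Smc1a at 16.5 ± 0.402, both clear of Smc4 at 12.7 ± 1.02. Smc3 at 11.6 ± 0.508 overlapped Smc4 and met the upper edge of Smc2 at 10.7 ± 0.741, and Ncapd2 at 10.4 ± 1.02 overlapped Smc2. Ncaph at 4.16 ± 0.522 CPM per kb stayed clear of the 3 lowest subunits, of which Ncapd3 at 2.55 ± 0.110 lay clear of Ncapg2 at 2.22 ± 0.215 but overlapped Ncapg at 2.18 ± 0.252. In p16 cells Ncaph2 was highest at 22.1 ± 0.970 CPM per kb, clear of Smc4 at 20.3 ± 1.31. Below them came Smc1a (19.6), Smc2 (17.2), Ncapd2 (17.0), Smc3 (13.9), Ncaph (6.41), Ncapg (3.92), Ncapg2 (3.88) and Ncapd3 (3.26 CPM per kb). The p16 ranges of Smc4 and Smc1a, of Smc2 and Ncapd2, and of Ncapg and Ncapg2 overlapped.

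The first comparison asked what p21 did to these genes. All 10 subunits fell in p21 cells, by 1.39-fold (Ncaph2) to 2.38-fold (Ncapg), and no library of either group overlapped. Among all tested genes, 20.7% passed the same test in the lower direction, and 25.7% lay below control in every library. Passing means an adjusted p under 0.05 by edgeR's quasi-likelihood test with Benjamini-Hochberg adjustment over all tested genes. The median log2 fold change was -0.98 over the 10 subunits and -0.01 over all genes.

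The SMC2 and SMC4 proteins form the shared core of both condensins. Smc2 stood at 124, 107 and 101 CPM in control replicates 1 to 3 and at 54.2, 59.9 and 62.0 CPM in p21 replicates 1 to 3. Every p21 library lay well under the lowest control library, a log2 fold change of -0.91 ± 0.08 (SE; adjusted p = 5.25e-05). Smc4 stood at 142, 134 and 135 CPM in control and at 61.6, 64.7 and 72.0 CPM in p21 libraries. Its groups were as far apart, at a log2 fold change of -1.05 ± 0.07 (adjusted p = 1.31e-05), or 2.07-fold lower.

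Condensin I compacts the arms of mitotic chromosomes. Ncapd2, a HEAT-repeat subunit of condensin I, stood at 152, 137 and 148 CPM in control and at 57.9, 66.8 and 70.2 CPM in p21 libraries. The highest p21 library was under the lowest control library by a wide gap (log2 fold change -1.16 ± 0.08, adjusted p = 1.29e-05). Ncapg, the second HEAT-repeat subunit, stood at 37.2, 37.4 and 35.3 CPM in control and at 13.8, 15.1 and 17.3 CPM in p21 libraries. Its fall was the largest of the 10 subunits, at a log2 fold change of -1.25 ± 0.08 (adjusted p = 1.14e-05). Ncaph, the kleisin that closes the condensin I ring, stood at 41.8, 34.5 and 36.3 CPM in control and at 15.7, 17.8 and 20.2 CPM in p21 libraries. Control replicate 1 was the highest of its group, and the log2 fold change was -1.07 ± 0.10 (adjusted p = 4.85e-05).

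The 3 condensin II subunits all fell, but by unequal amounts. Ncapg2, the counterpart of Ncapg, stood at 54.4, 47.2 and 48.8 CPM in control and at 19.7, 22.9 and 23.7 CPM in p21 libraries. This was 2.27-fold lower (log2 fold change -1.19 ± 0.08, adjusted p = 1.32e-05), within 1 standard error of the change of Ncapg. Ncapd3, the counterpart of Ncapd2, stood at 34.6, 29.0 and 30.4 CPM in control and at 19.1, 20.5 and 20.6 CPM in p21 libraries. Its p21 libraries lay closer to the control range, and it was 1.56-fold lower (log2 fold change -0.64 ± 0.07, adjusted p = 0.000134). Ncaph2, the kleisin of condensin II, stood at 110, 110 and 111 CPM in control and at 77.3, 76.9 and 83.6 CPM in p21 libraries. The control libraries were nearly equal, and the fall was the smallest of the 10, at a log2 fold change of -0.48 ± 0.05 (adjusted p = 0.000106).

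The cohesin SMC genes fell by smaller folds than the condensin SMC genes. Smc1a stood at 155, 131 and 135 CPM in control and at 94.1, 97.9 and 93.8 CPM in p21 libraries. Control replicate 1 was the highest library, and the fold change was 1.48 downward (log2 fold change -0.56 ± 0.06, adjusted p = 0.00017). Smc3 stood at 93.4, 91.2 and 94.8 CPM in control and at 62.9, 62.5 and 67.5 CPM in p21 libraries. Its libraries were tight within each group, and it was 1.45-fold lower (log2 fold change -0.53 ± 0.05, adjusted p = 3.99e-05). Median log2 fold changes were -0.98 for the shared SMC genes, -1.16 for condensin I, -0.64 for condensin II and -0.55 for the cohesin SMC genes. Control replicate 1 held the highest control level of 7 of the 10 subunits, and p21 replicate 1 the lowest p21 level of 7. Under all 17 other settings and left-out libraries, each of the 10 subunits kept its call and its direction.

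**Figure D2:**
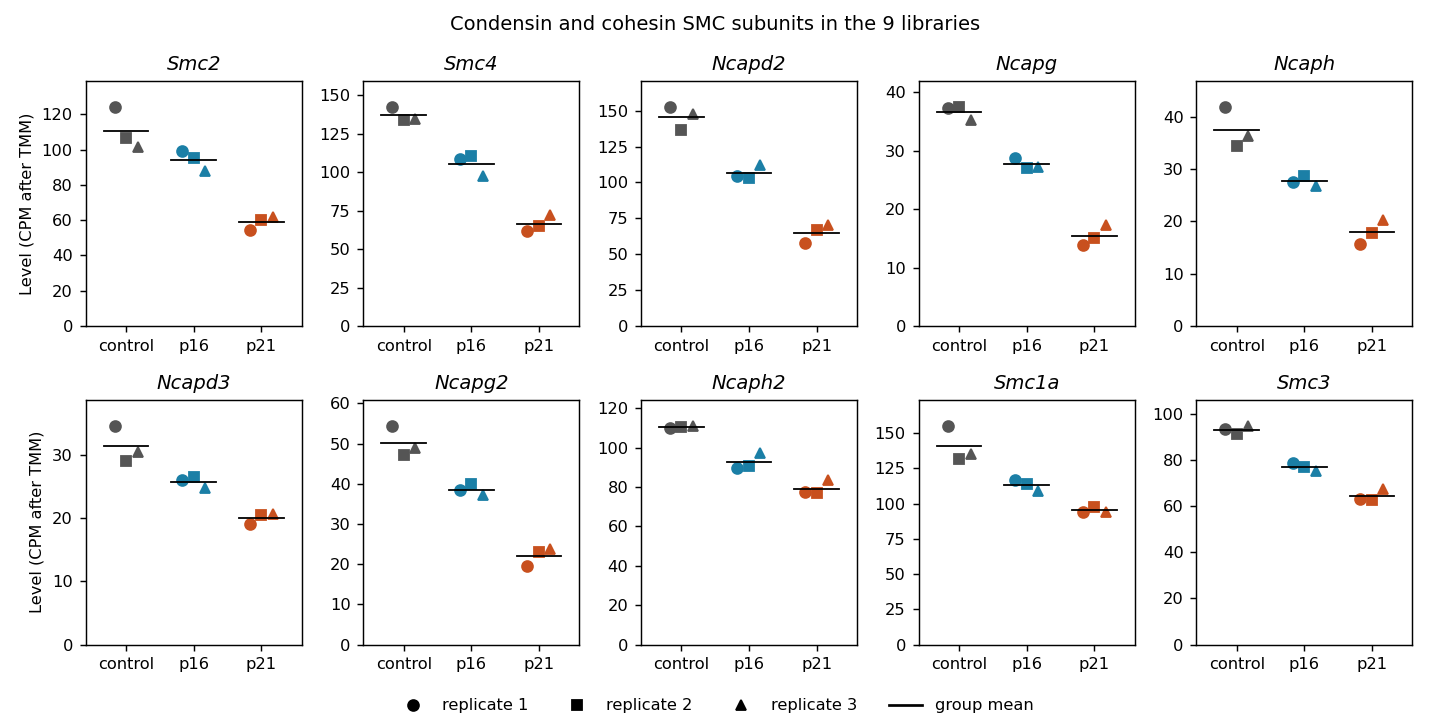
Level of each subunit gene in each library (vertical axis, CPM after TMM scaling, from 0; horizontal axis, group; symbols mark the replicate number and lines the group means). In every panel the 3 p21 libraries lie lowest, the 3 p16 libraries between and the 3 control libraries highest, with no overlap.

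The second comparison asked the same of p16. 9 of the 10 subunits fell in p16 cells, by 1.19-fold (Ncaph2) to 1.37-fold (Ncapd2), while 3.65% of all tested genes passed the test in that direction. In the fit with replicate number as a block, 9 subunits fell as well, while the genes lower among all tested rose from 532 to 1221 (8.38%). Every p16 library lay below every control library for all 10 subunits, which held for 15.1% of tested genes. The median log2 fold change was -0.34 over the subunits and -0.01 over all genes.

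Among the shared SMC genes, Smc4 stood at 108, 111 and 97.8 CPM in p16 replicates 1 to 3, against 134 or more in every control library. The log2 fold change was -0.38 ± 0.07 (adjusted p = 0.0154). Smc2 was the subunit that did not pass, with 99.2, 95.0 and 88.0 CPM in p16 libraries against 101 in the lowest control library. The gap between the groups was small beside their spread, at a log2 fold change of -0.23 ± 0.08 (adjusted p = 0.121, or 0.0576 with replicate number as a block). With a term for replicate 3 the adjusted p of Smc2 was 0.0487.

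The condensin I genes fell by similar amounts in p16 cells. Ncapd2 stood at 105, 103 and 112 CPM in p16 libraries (log2 fold change -0.45 ± 0.08, adjusted p = 0.0109). Ncapg stood at 28.8, 27.0 and 27.2 CPM (log2 fold change -0.41 ± 0.08, adjusted p = 0.0176). Ncaph stood at 27.5, 28.6 and 26.7 CPM (log2 fold change -0.44 ± 0.10, adjusted p = 0.0264). For each of these 3 genes, every p16 library lay between the control and p21 ranges. Of the condensin II genes, Ncapg2 stood at 38.5, 39.9 and 37.3 CPM in p16 libraries (log2 fold change -0.38 ± 0.08, adjusted p = 0.0215). Ncapd3, at 26.0, 26.5 and 24.8 CPM, was nearest the threshold among the genes that passed (log2 fold change -0.28 ± 0.07, adjusted p = 0.0419). That call failed in 11 of the 17 other settings, among them every fit that left out 1 of the 9 libraries. Ncaph2 stood at 90.0, 90.9 and 97.5 CPM (log2 fold change -0.25 ± 0.05, adjusted p = 0.0205). Thus Ncapd3 and Ncaph2 were the least changed condensin subunits that passed. Smc2, which did not pass, had a smaller estimate (-0.23), unlike in p21 cells (-0.91). Of the 17 other settings, the p16 calls of Ncaph, Ncapg, Ncapg2, Ncaph2 and Ncapd2 failed in 5, 4, 4, 3 and 2. The p16 call of Smc4 failed in 1.

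The cohesin genes Smc1a and Smc3 fell to a like extent. Smc1a stood at 116, 114 and 109 CPM in p16 libraries (log2 fold change -0.31 ± 0.06, adjusted p = 0.0223), a call that failed in 5 of the 17 other settings. Smc3 stood at 78.7, 76.9 and 75.3 CPM (log2 fold change -0.28 ± 0.05, adjusted p = 0.0115), a call that failed in 1 of them. In contrast to the p21 cells, the cohesin SMC genes (median -0.29) lay close to the shared condensin SMC genes (median -0.31) on the log2 scale. The count of 9 rested on every p16 library. Leaving out p16 replicate 1 or 2 left 1 subunit past the threshold, and leaving out p16 replicate 3 left 4, with all 10 still lower.

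The direct comparison of p21 with p16 used no control library in the contrast, whereas both comparisons above shared the control libraries. All 10 subunits were lower in p21 than in p16 cells, by 1.17-fold (Ncaph2) to 1.80-fold (Ncapg), and 6.64% of all tested genes passed the test in that direction (12.2% with replicate number as a block, and 2.14% to 3.54% when p21 replicate 1 or 2 or any 1 p16 library was left out). No p21 library overlapped a p16 library for any subunit, which held in this direction for 18.5% of genes. The full order of control above p16 above p21 in every library held for all 10 subunits and for 7.78% of tested genes. Among the shared SMC genes, the log2 fold change was -0.68 ± 0.08 for Smc2 (adjusted p = 0.00161) and -0.68 ± 0.07 for Smc4 (adjusted p = 0.000784). Both were thus 1.60-fold lower in p21 cells.

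In condensin I, Ncapg was 1.80-fold lower in p21 than in p16 cells (log2 fold change -0.84 ± 0.08, adjusted p = 0.000564), Ncapd2 1.64-fold lower (adjusted p = 0.000985) and Ncaph 1.54-fold lower (adjusted p = 0.00427). In condensin II, Ncapg2 was 1.75-fold lower (log2 fold change -0.80 ± 0.08, adjusted p = 0.000668), near Ncapg in size. Ncapd3 was 1.28-fold lower (adjusted p = 0.0124) and Ncaph2 1.17-fold lower (adjusted p = 0.0195). The cohesin genes differed least along with Ncaph2, with Smc3 1.20-fold lower (adjusted p = 0.00839) and Smc1a 1.19-fold lower (adjusted p = 0.034). The calls of Ncapd3, Ncaph2 and Smc1a failed under 1, 4 and 7 of the 17 other settings. For Ncapd3 this was without p21 replicate 1 (adjusted p = 0.0614), for Ncaph2 without p21 replicate 1 or 2 or p16 replicate 2 or 3 (0.0507 to 0.0938), and for Smc1a without each of the 6 p21 and p16 libraries in turn, or with replicates 1 and 2 alone (0.0555 to 0.123).

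**Figure D3:**
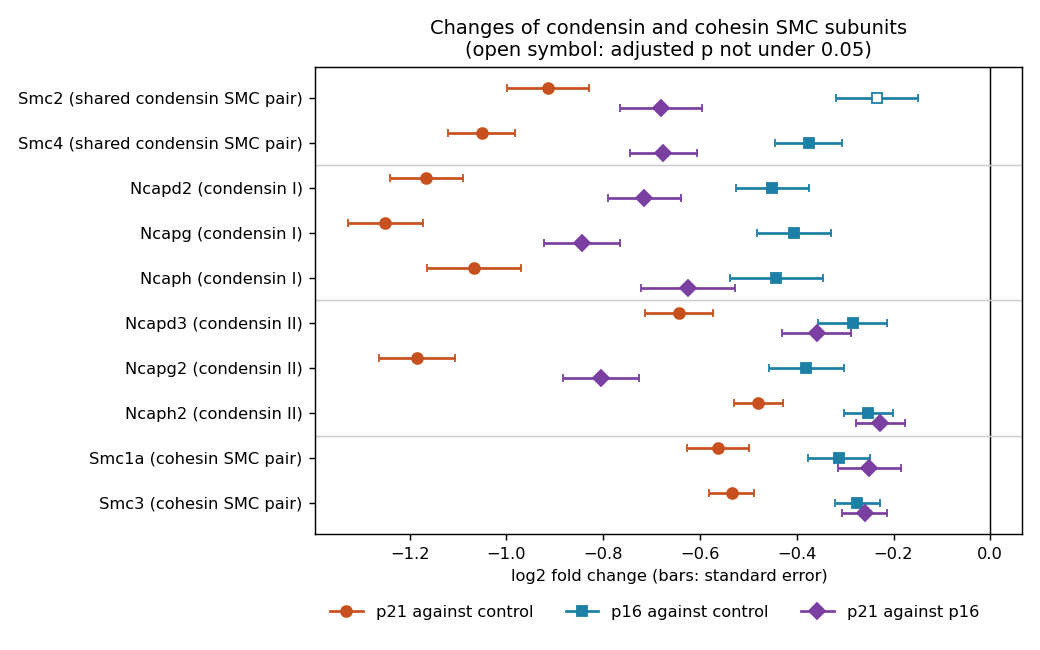
Log2 fold change of each subunit gene (horizontal axis; bars are standard errors; rows are grouped by complex) for p21 against control, p16 against control and p21 against p16. All points lie left of 0, Ncapg and Ncapg2 are farthest left for p21, and the open symbol is Smc2 in p16 cells (adjusted p = 0.121).

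The balance between the complexes was followed as ratios of CPM per exonic kb within each library. These ratios are given as a description, and no test result is used for them. The summed level of the condensin I subunits over that of the condensin II subunits was 1.09, 1.01 and 1.05 in control, 0.650, 0.729 and 0.737 in p21 and 0.949, 0.927 and 0.927 in p16 libraries. Both treated groups lay below the control range and did not overlap each other. Mean ratios were 1.05 in control, 0.705 in p21 and 0.935 in p16 cells. In each sum a single gene held most of the level: Ncapd2 made up 62.6% of the condensin I sum in control cells and 62.1% in p21 cells, and Ncaph2 74.5% and 79.8% of the condensin II sum. The ratio therefore follows mainly those 2 genes, while Ncapg2 of condensin II fell about as much as the condensin I genes. Reads of the exons that Ncaph2 shares with Sco2 and Tymp could be part of its level. With coding lengths the means were 0.779, 0.530 and 0.697. The level of this ratio thus depended on the length used, and its order did not.

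Counterpart subunits were set against each other in the same way. The ratio of Ncapd2 to Ncapd3 was 5.54 to 6.12 in control, 3.82 to 4.28 in p21 and 4.91 to 5.68 in p16 libraries, with p21 clear of both other groups. The kleisin ratio of Ncaph to Ncaph2 was 0.304 to 0.370 in control, 0.198 to 0.236 in p21 and 0.267 to 0.306 in p16 libraries, again with p21 clear of both. By contrast, the ratio of Ncapg to Ncapg2 was 0.962 to 1.11 in control, 0.927 to 1.03 in p21 and 0.952 to 1.05 in p16 libraries, and all 3 groups overlapped. Within the SMC dimers, the ratio of Smc2 to Smc4 (means of 0.767, 0.846 and 0.848 in control, p21 and p16 cells) and of Smc1a to Smc3 (1.45, 1.43 and 1.41) also overlapped between groups. Summed condensin SMC level over summed cohesin SMC level was 1.14, 1.15 and 1.09 in control and 0.786, 0.827 and 0.884 in p21 libraries. It was 1.13, 1.15 and 1.07 in p16 libraries, within or near the control range. On this measure the p21 libraries stood apart from both other groups, which overlapped.

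**Figure D4:**
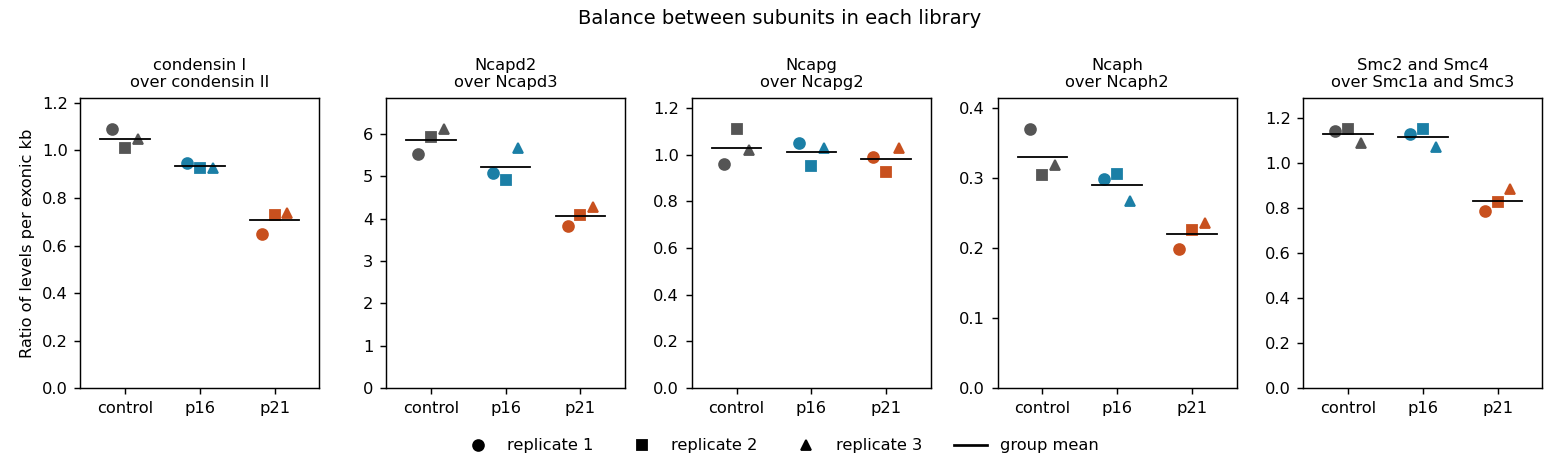
Ratios of levels per exonic kb between complexes and between counterpart subunits in each library (vertical axes start at 0; symbols mark the replicate number and lines the group means). p21 libraries lie lowest for condensin I over condensin II (0.650 to 0.737) and for the SMC genes of condensin over those of cohesin, while Ncapg over Ncapg2 overlaps in all groups.

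Genes that work with these subunits were followed from lists of known partners. Of 5 tested non-SMC cohesin subunits, 3 fell in p21 cells and 1 in p16 cells, against 20.7% and 3.65% of all tested genes. Rad21, the mitotic kleisin of cohesin, stood at 188, 179 and 185 CPM in control, 101, 105 and 112 in p21 and 147, 146 and 140 in p16 libraries. It fell 1.73-fold in p21 (adjusted p = 1.14e-05) and 1.28-fold in p16 cells (adjusted p = 0.00745), more in p21 cells than either cohesin SMC gene. Per exonic kb, Rad21 was above all 10 subunits in control cells, at 43.5 ± 1.10 CPM per kb (SD, n = 3). Stag1 fell 1.35-fold (adjusted p = 0.000163) in p21 cells, and Stag2 fell 1.11-fold (adjusted p = 0.0237), a call that 4 other settings lost. These alternative subunits stood at 4.77 (Stag1) and 9.85 (Stag2) CPM per kb in control cells. In p16 cells neither passed (adjusted p = 0.0756 and 0.982), although Stag1 passed with replicate number as a block (adjusted p = 0.0292).

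Among 10 genes of cohesin loading, release and acetylation, 6 fell in p21 cells and 3 in p16 cells. Among all tested genes, 20.7% fell in p21 and 3.65% in p16 cells. Esco2, the acetyltransferase that locks cohesin onto sister chromatids in S phase, fell 1.98-fold in p21 cells (adjusted p = 0.000388), and Cdca5, which encodes the cohesin protector sororin, fell 1.91-fold (adjusted p = 0.000214). The loader gene Nipbl fell 1.22-fold (adjusted p = 0.0132), but not without p21 replicate 1. Pds5b, Pds5a and Ctcf, whose protein halts cohesin at loop anchors, also fell. The loader partner Mau2, the releasing factor Wapl (Wapal in the table), the acetyltransferase Esco1 and the deacetylase Hdac8 did not pass in p21 cells, with log2 fold changes from -0.07 to 0.05. In p16 cells Cdca5 (1.37-fold), Pds5b (1.19-fold) and Ctcf (1.17-fold) fell. Each of these 3 p16 calls failed in 6 or more of the 17 other settings, and none of the 10 genes passed when any 1 of the p16 libraries was left out.

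Of 7 genes of cohesin protection and cleavage, 6 fell in p21 cells and 5 in p16 cells, against 20.7% and 3.65% of tested genes. The p16 count dropped to 1 (Espl1) without p16 replicate 1 or 2, and to 2 without p16 replicate 3 or control replicate 2. Espl1, which encodes separase, the protease that cuts RAD21 at anaphase, fell 2.22-fold in p21 cells (adjusted p = 1.06e-05) and 1.43-fold in p16 cells (adjusted p = 0.00611). The shugoshin genes Sgol1 and Sgol2, whose proteins guard centromeric cohesin, fell 2.19-fold and 1.97-fold in p21 cells. The kinase genes Plk1, Aurkb and Bub1 fell 2.24-fold, 2.26-fold and 2.28-fold. Pttg1, which encodes the separase inhibitor securin, was the exception, at 9.90, 11.6 and 9.82 CPM in control and 11.1, 11.6 and 10.5 CPM in p21 libraries. The groups overlapped (log2 fold change 0.09 ± 0.09, adjusted p = 0.482).

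Of all tested genes, 20.7% fell and 19.3% rose in p21 cells, and 3.65% fell in p16 cells. Among 10 genes that act beside condensin on mitotic chromosomes, 9 fell and 1 rose in p21 cells, and 5 fell in p16 cells. The p16 count dropped to 1 (Mki67) without p16 replicate 1 or 2, to 2 without p16 replicate 3 and to 3 without control replicate 1 or 2, and Cdk1 also passed with replicate number as a block (adjusted p = 0.0321). Top2a, topoisomerase II alpha, fell 2.31-fold in p21 cells (adjusted p = 1.45e-05) and 1.30-fold in p16 cells (adjusted p = 0.026). Kif4, a chromosome-bound kinesin, fell 2.29-fold and 1.28-fold, and Mki67, which coats mitotic chromosomes, fell 2.53-fold and 1.52-fold. Cdk1 and Ccnb1, the kinase and cyclin that phosphorylate condensin, fell 1.92-fold and 2.32-fold in p21 cells. Mcph1, whose protein restrains condensin II, fell 1.41-fold, and the isoform gene Top2b fell 1.11-fold, a call lost in 4 other settings. The p21 call of Akap8 (1.15-fold lower) failed in 6. The gene that rose was Phf8, a histone demethylase gene (1.16-fold, adjusted p = 0.00861). In the lists of dividing cells, all 16 spindle and checkpoint genes and 15 of 16 DNA replication genes fell in p21 cells, with median log2 fold changes of -1.11 and -0.74. In p16 cells 11 and 6 of these genes fell, against 3.65% of all tested genes. These p16 counts were 3 and 1 without p16 replicate 1, 3 and 0 without replicate 2, 4 and 2 without replicate 3, and 6 and 2 without control replicate 2. With only the 2 groups compared, 3 replication genes passed.

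**Figure D5:**
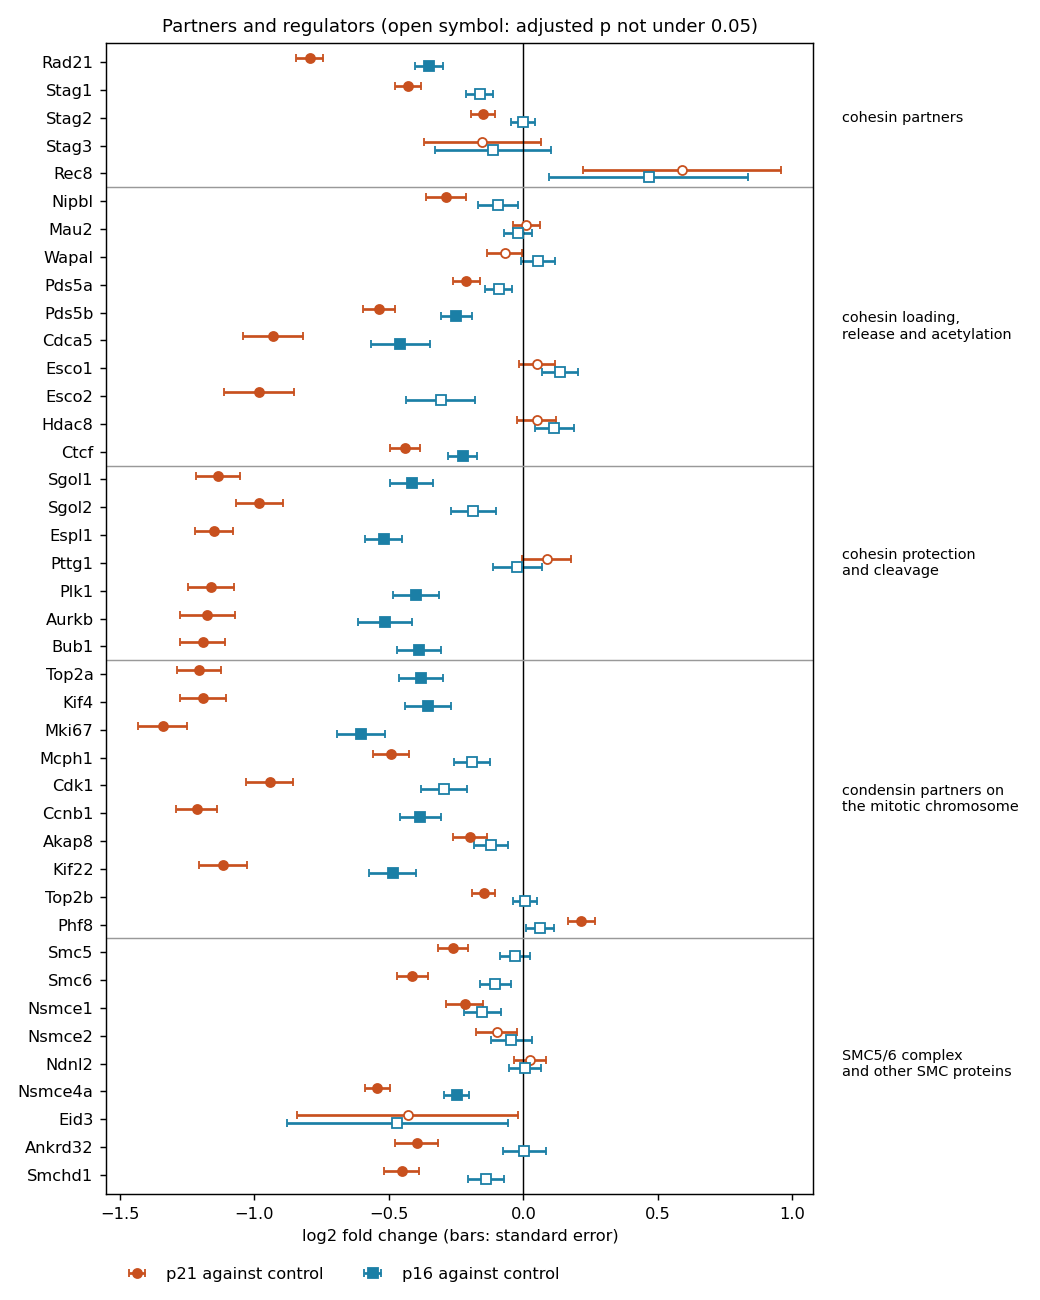
Log2 fold change (horizontal axis; bars are standard errors) of partner and regulator genes in p21 and p16 cells against control, grouped by role (open symbols have an adjusted p not under 0.05). Espl1 and Top2a lie past -1 in p21 cells, whereas Pttg1, Mau2, Wapal, Esco1 and Hdac8 are open symbols near 0.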

How the data were processed

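RNA libraries of 9 samples, 3 per group by their titles, were sequenced. The authors deposited whole-number read counts per gene symbol, not normalised. Tools named in the submitters' processing notes are featureCounts 1.4.6, Subread, Bowtie2 2.2.6 and TopHat2 2.0.14, with the build mm10. Annotation, strand setting and handling of multi-mapped reads: not given in the sources used here.

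Counts were fitted with edgeR 4.0.16 in R 4.3.3: TMM scaling, filterByExpr by group, 1 quasi-likelihood fit of the 3 group means over all 9 libraries, Benjamini-Hochberg adjustment over 14572 genes and a threshold of 0.05. The fit was tested on simulated data. Standard errors were derived from each log2 fold change and its F statistic. DESeq2 1.42.0, other scalings, no filter, replicate terms and left-out libraries were tried as alternatives. Lengths come from GENCODE M21 exon unions.

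No libraries were merged, since pairs of the same group differed by more than counting error (chi-square per degree of freedom of 10.9 or more). Deviations of same-numbered libraries correlated at 0.25, 0.11 and 0.55 between p16 and control and at 0.16, 0.29 and 0.48 between p21 and p16, but at 0.18, 0.03 and 0.49 between p21 and control. By the rule that every pair exceed 0.1, the numbers pair p16 with each other group. However, replicate 2 of p16 correlated more with a differently numbered control library (0.299 against 0.109). The same held for replicate 2 of p21 against control (0.358 against 0.0253), so the numbers do not settle the pairing with control.

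The members and lists were chosen with earlier results of these data known. All 10 members are named, with genes of the partner lists, and only counts are given for the spindle and replication lists.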

Additional observations from a re-analysis of the deposited data

How the results depend on the processing

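Direction never reversed for any of the 10 subunits in the 17 alternatives run per comparison. In p21 against control, 10 subunits were lower and 0 higher in every alternative. In p16 against control, where 9 were lower, leaving out 1 library gave 1 to 8: 1 without p16 replicate 1, 1 without p16 replicate 2 and 4 without p16 replicate 3. It was 7 with only the 2 groups compared, 6 with replicates 1 and 2, 10 with a replicate 3 term and 9 in each other setting. Fits without a p16 library have 2 in place of 3, and with them the genes lower among all tested went from 532 to between 66 and 163. That count was 876 with DESeq2, 1221 with the replicate block, 1323 with a replicate 3 term, 256 with only the 2 groups compared and 253 with replicates 1 and 2. The cause was not tested. With the replicate block, 10, 9 and 10 subunits were lower in p21 against control, p16 against control and p21 against p16. The block thus changed no subunit's call, while genes lower in p21 against p16 rose from 968 to 1781 (1825 with a replicate 3 term). That count was 316 and 490 without p21 replicates 1 and 2, and 454, 470 and 524 without p16 replicates 1, 2 and 3. The change of Smc2 in p16 cells did not pass in 16 of 17 alternatives, and 3 libraries per group limit the precision of changes of that size.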

Other observations

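The third SMC complex, SMC5/6, which acts in recombination and repair, was described alongside condensin and cohesin. Of 9 tested genes of SMC5/6 and other SMC proteins, 6 were lower in p21 cells, 1 in p16 cells and 5 in p21 against p16 (2 without p21 replicate 1 or p16 replicate 2, and 3 without p16 replicate 1). The shares of all tested genes in these comparisons were 20.7%, 3.65% and 6.64%. Smc5 was at 57.2 CPM in control and 47.7 CPM in p21 cells (1.20-fold lower, adjusted p = 0.00469), and Smc6 at 115 and 86.4 CPM (1.33-fold lower, adjusted p = 0.000525). Nsmce4a, a subunit of the complex, was 1.46-fold lower in p21 and 1.19-fold lower in p16 cells (adjusted p = 3.14e-05 and 0.0159), and the p16 call failed in 5 of 17 alternatives. Smchd1, a noncanonical SMC gene that acts in X inactivation, was 1.37-fold lower in p21 cells (adjusted p = 0.000632). Nsmce2 and Ndnl2, listed elsewhere as Nsmce3, did not pass in either comparison with control.

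Meiotic cohesin subunits were at trace levels. Stag3 stood at 1.46 CPM in control, 1.32 in p21 and 1.35 in p16 cells, and Rec8 at 0.287, 0.43 and 0.396 CPM, with neither passing the test.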
